A study of Mus musculus with 2 samples.

Results

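Transcripts of 10 genes at the entry of Toll-like receptor (TLR) signalling were described in mouse myeloid-derived suppressor cells (MDSCs). The set was fixed by gene symbol: 8 receptors (Tlr1, Tlr2, Tlr4, Tlr6, Tlr7, Tlr8, Tlr9 and Tlr13), the co-receptor gene Cd14 and the adaptor gene Myd88. All 10 were found, of 55401 gene rows in the deposited table, and all 10 passed the minimum mean level of 1 FPKM (fragments per kilobase of transcript, scaled to the depth of the library), as did 12526 rows in total. In 9 of the 10 genes the libraries lay within 1.2-fold of each other in depth-scaled counts, as they did in 72.7% of those 12526 rows. Tlr4 was the exception, at 1.45 FPKM in the control library against 3.49 FPKM in the other.

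MDSCs are activated, immature neutrophil-like and monocyte-like cells that restrain T cells in tumour-bearing hosts. Here they were obtained by magnetic bead sorting from C57BL/6 mice of 8 weeks that carried MC38 colon adenocarcinoma, and then shared a culture with MC38 cells for 24 h. Both groups were homozygous for floxed Mettl3, the gene of the catalytic m6A RNA methyltransferase subunit. The control group had the genotype Mettl3fl/fl, and the other group had LysM-cre, Mettl3fl/fl, in which Cre is driven from the lysozyme 2 locus and so acts in neutrophils, monocytes and macrophages rather than in MDSCs alone. Its tumour label reads MC39 and not MC38. Each group was 1 poly(A) RNA library, of 59506878 counts for the control and 59393864 for the other, and the labels do not say whether animals were pooled.

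With 1 library a group no difference has a replicate check, so no p-value is given and genes are compared by size of difference. Where a pair of values is given, the control comes first and the library labelled LysM-cre follows. CPM are counts scaled to the library total, and a range behind a CPM ratio (LysM-cre label over control) is its exact 95% Clopper-Pearson interval. That interval covers counting error only and compares these libraries, not the genotypes. Mettl3 itself was at 4.16 and 3.92 FPKM (CPM ratio 0.945, 0.876 to 1.02). The gene-level value therefore did not separate the genotypes, and the second library is called "the library labelled LysM-cre" throughout. Neutrophil and monocyte markers were present (Ly6g at 44.5 and 31.3 FPKM, Ly6c2 at 137 and 122 FPKM), and so were markers of macrophages (C1qa at 623 and 655), B cells (Cd79a at 74.9 and 67.3) and T cells (Cd3e at 14.5 and 14.1). In such mixed libraries, fewer cells of a type and less RNA per cell cannot be told apart.

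Toll-like receptors bind conserved microbial molecules and, when paired by a ligand, bring together TIR domains in the cytosol. Tlr1, Tlr2, Tlr4 and Tlr6 act at the cell surface on lipopeptides and lipopolysaccharide, with CD14 handing over the ligand. Tlr7, Tlr8, Tlr9 and Tlr13 act in endolysosomes on nucleic acids. MyD88 couples all of the receptors studied here to IRAK kinases, TRAF6 and NF-kB, and it serves the interleukin-1 receptor family too. In MDSCs this pathway is known for driving the expansion and activation of the cells in inflammation.

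How far reads can be placed differs among these genes, and the sequence that matters most is a stretch that Tlr1 and Tlr6 share. These neighbouring genes encode alternative partners of TLR2, and their coding sequences (2385 and 2418 bases) were identical at 75.1% of the bases of the shorter one after alignment. The stretch below is the longest run without a difference, 229 bases. It occupies coding positions 1468 to 1696 of Tlr1 and 1507 to 1735 of Tlr6, counted from the A of the start codon, in 1 coding exon of each gene (minus strand of chr5:64925537-64925765 and chr5:64953828-64954056, GENCODE M21 on mm10). It is longer than 1 read of 150 bases, although the mate of a read may reach beyond it, and is printed whole with no capitals.

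Tlr1 and Tlr6: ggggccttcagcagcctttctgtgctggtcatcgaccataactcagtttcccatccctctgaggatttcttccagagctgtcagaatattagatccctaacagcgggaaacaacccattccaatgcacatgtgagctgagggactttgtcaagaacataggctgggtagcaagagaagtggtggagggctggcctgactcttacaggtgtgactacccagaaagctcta

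Of all 150-base words in the annotated transcripts of Tlr1, 4.30% also occurred in Tlr6, and 3.86% of those of Tlr6 occurred in Tlr1. No other gene shared a word with this pair. Myd88 shared 2.76% of its words with Acaa1a on the opposite strand, and the 7 remaining genes, Tlr4 among them, shared none with any other annotated transcript. Tlr7 and Tlr8, which also lie side by side, had 55.7% identical bases and no common run above 13 bases.

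Regulatory sequence is shown for Tlr2, the surface receptor with the highest level, and Myd88, the adaptor of all members, since these promoters hold different motif classes linked to the pathway. Sequences run from 250 bases before to 50 bases after the annotated start, from RefSeq on GRCm38.p6. Windows of 7 of the 10 genes were searched, and Tlr4, Tlr7 and Cd14 were left out of this search. Capitals mark matches to the NF-kB consensus, searched on the printed strand only, in Tlr2 (chr3:83841559-83841858, minus strand). In Myd88 (chr9:119339969-119340268, minus strand) they mark matches, on either strand, to TATAAA or to the interferon response motif GAAANNGAAA.

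Tlr2: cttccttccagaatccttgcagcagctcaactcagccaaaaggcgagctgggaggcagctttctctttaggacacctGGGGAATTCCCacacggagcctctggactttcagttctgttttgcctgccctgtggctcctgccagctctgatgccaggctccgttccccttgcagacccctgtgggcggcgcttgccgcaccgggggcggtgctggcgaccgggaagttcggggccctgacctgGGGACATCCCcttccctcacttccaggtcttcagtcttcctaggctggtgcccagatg
Myd88: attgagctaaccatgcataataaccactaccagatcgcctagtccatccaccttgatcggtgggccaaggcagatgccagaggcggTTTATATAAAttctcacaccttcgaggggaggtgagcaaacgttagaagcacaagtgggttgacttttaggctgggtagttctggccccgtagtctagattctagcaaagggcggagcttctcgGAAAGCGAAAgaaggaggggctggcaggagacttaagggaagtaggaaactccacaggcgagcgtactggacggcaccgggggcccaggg

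The Tlr2 window held 3 NF-kB matches on the printed strand, of which 2 overlap in the first block of capitals. Searched in the same way, 5.89% of all 32851 promoter windows held at least 1. The gene was shown because of these matches, and none of the other 8 windows, of 6 other members, held one in this search. The opposite strand was not searched for the NF-kB consensus. The Myd88 window held 1 match to the interferon response motif, present in 3.44% of windows, and 2 overlapping TATAAA matches, a motif present in 13.6%. A match is a description of letters and was not tied to the levels below. The levels of these 2 genes differed little between the libraries, at 31.5 and 28.6 FPKM for Tlr2 and 59.1 and 60.5 FPKM for Myd88.

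Among the surface receptors, Tlr4 set itself apart from the rest of its group. Tlr4 (ENSMUSG00000039005, chromosome 4, 66827584 to 66930284, plus strand), the lipopolysaccharide receptor, stood on 538 counts in the control library, and the library labelled LysM-cre held 1294. These are 1.45 and 3.49 FPKM, so the receptor was low in both. The CPM ratio was 2.41 (2.18 to 2.67). Tlr4 was the only member at or beyond 2-fold in CPM, which 2.2% of kept genes reached in the upward direction. Among the 5288 kept genes with a mean below 5 FPKM, where Tlr4 lies, 3.27% did. On the FPKM + 1 scale used for counting genes, its fold was 1.83, because the added 1 is large beside a low value. That made it the 1 member higher by 1.5-fold or more, against 3.19% of kept genes, with 0 members lower by as much (3.28% of kept genes) and 0 at 2-fold either way (2.49%).

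The Tlr4 row spans 102701 bases and, in GENCODE M21, 4 transcripts with 5556 exonic bases, including 1 coding transcript that ends about where the row does, far downstream of the main one. No other row overlaps it on either strand. The table gives gene-level counts, so how the difference was divided among these transcripts was not analysed here.

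Tlr2 (ENSMUSG00000027995, chromosome 3, 83836272 to 83841767), the common partner of Tlr1 and Tlr6, stood at 31.5 and 28.6 FPKM, on 6341 and 5750 counts. Its CPM ratio was 0.909 (0.877 to 0.942). Tlr6 (ENSMUSG00000051498, chromosome 5, 64952031 to 64960048), whose product with TLR2 recognises diacylated lipopeptides, stood at 9.24 and 8.59 FPKM (CPM ratio 0.93, 0.877 to 0.987). Tlr1 (ENSMUSG00000044827, chromosome 5, 64924679 to 64933561), the partner for triacylated lipopeptides, stood at 18.4 and 18.8 FPKM, and its interval covered 1 (1.02, 0.978 to 1.07). Because of the shared stretch, the pair was also summed, which gave 6410 and 6324 counts and a CPM ratio of 0.988 (0.955 to 1.02). Together the surface receptors came to 60.5 and 59.5 FPKM, so the sum was not higher with the higher Tlr4 value. Tlr4 stood at 0.0459 of the Tlr2 level in the control and at 0.122 of it in the other library.

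**Figure D1:**
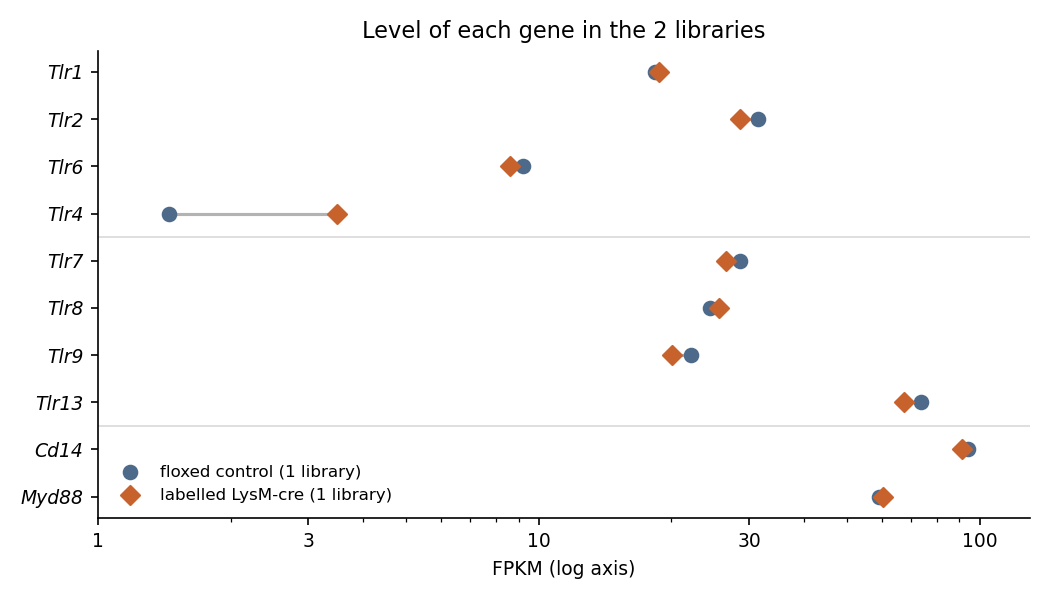
FPKM (log axis) of the 10 genes in the floxed control library (circles) and the library labelled LysM-cre (diamonds), joined by a line, with surface receptors on top, endosomal receptors in the middle and Cd14 and Myd88 below. The symbols nearly touch for 9 genes, whereas Tlr4, the lowest gene, runs from 1.45 to 3.49 FPKM.

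Each endosomal receptor stood above Tlr1, Tlr6 and Tlr4 in level, and each lay within 1.2-fold between the libraries. Tlr13 (ENSMUSG00000033777, chromosome X, 106143204 to 106160493), a receptor for bacterial ribosomal RNA that mice have and humans lack, had the highest level of any receptor studied. It stood at 73.5 and 67.6 FPKM, on 21136 and 19386 counts (CPM ratio 0.919, 0.901 to 0.937). Tlr7 (ENSMUSG00000044583, chromosome X, 167304929 to 167330558), a receptor for single-stranded RNA, stood at 28.6 and 26.7 FPKM (0.931, 0.901 to 0.961). Tlr9 (ENSMUSG00000045322, chromosome 9, 106222598 to 106226883), the receptor for CpG DNA, stood at 22.1 and 20.1 FPKM (0.907, 0.871 to 0.944). These 3 were lower in the library labelled LysM-cre by 6.94% to 9.32% of the control CPM.

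Tlr8 (ENSMUSG00000040522, chromosome X, 167242696 to 167264329), the RNA receptor next to Tlr7, was on the other side of 1. It stood at 24.5 and 25.7 FPKM (CPM ratio 1.05, 1.01 to 1.09). The endosomal receptors together came to 149 and 140 FPKM. Tlr7, Tlr8 and Tlr13 are X-linked. Both libraries carried Y-linked transcripts (Ddx3y at 17.4 and 16.0 FPKM, Kdm5d at 2.63 and 3.03, Eif2s3y at 16.6 and 13.7, Uty at 1.72 and 1.61). Xist had 24 and 12 counts.

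Cd14 and Myd88 were nearly level. Cd14 (ENSMUSG00000051439, chromosome 18, 36725067 to 36726798), which loads lipopolysaccharide onto TLR4 and MD-2, had the highest level of the 10 genes at 94.0 and 91.5 FPKM (CPM ratio 0.973, 0.947 to 0.999). Cd14 exceeded Tlr4 by 65.0 times in the control and by 26.2 times in the library labelled LysM-cre, on the FPKM scale. Myd88 (ENSMUSG00000032508, chromosome 9, 119335934 to 119340041), the shared adaptor, stood on 10171 and 10389 counts, and its interval covered 1 (1.02, 0.996 to 1.05). Its row overlaps Acaa1a, which lies on the opposite strand. Second strands were marked with dUTP, but whether counting used strand was not stated, and the part of Acaa1a reads in the Myd88 value was not tested.

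The order of the 10 genes by FPKM was the same in both libraries, from Cd14 through Tlr13, Myd88, Tlr2, Tlr7, Tlr8, Tlr9, Tlr1 and Tlr6 to Tlr4. With 1 library each, the spread between replicates that would tell neighbours in this order apart is not known. The gaps between Tlr2, Tlr7 and Tlr8 were small in both libraries (31.5, 28.6 and 24.5 FPKM in the control, 28.6, 26.7 and 25.7 in the other).

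**Figure D2:**
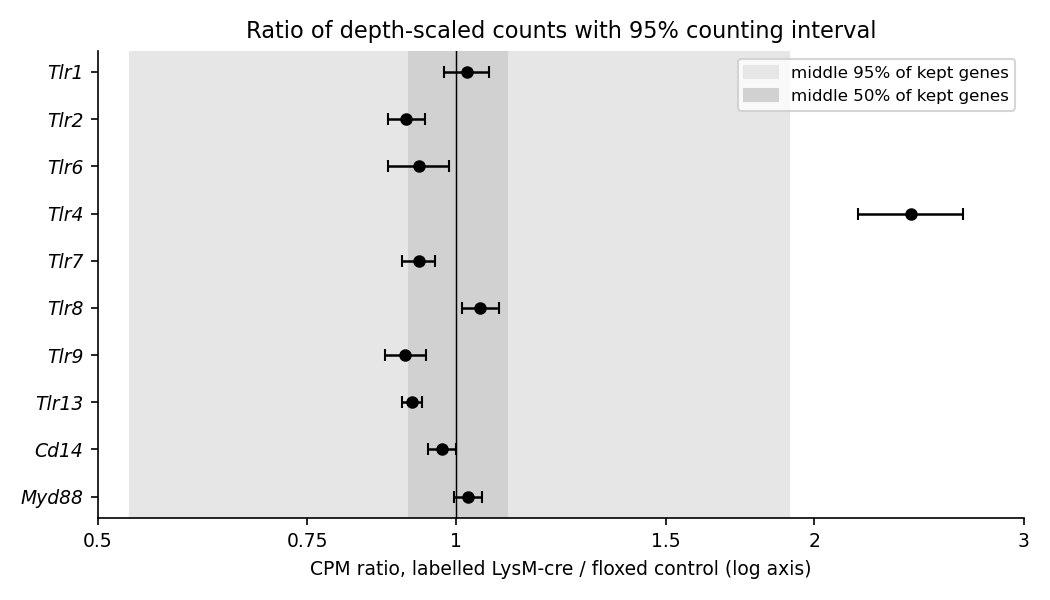
CPM ratio (library labelled LysM-cre over floxed control, log axis) of each gene, with bars for the 95% counting interval; light and dark grey bands hold the middle 95% (0.532 to 1.9) and middle 50% (0.913 to 1.1) of the kept genes. The ratio of Tlr4, 2.41, lies to the right of both bands, and those of the other genes lie between 0.907 and 1.05.

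Small differences of this kind were common in these libraries. At this depth the counting interval lay above 1 for 2 members (Tlr4 and Tlr8), against 30.1% of kept genes. It lay below 1 for 6 members (Tlr2, Tlr6, Tlr7, Tlr9, Tlr13 and Cd14), against 29.7% of kept genes. A CPM ratio within 1.2-fold, found in 9 of 10 members, was found in 72.7% of kept genes. The median log2 ratio of FPKM + 1 was −0.07 over the 10 members and 0.00 over all kept genes, with 6 members lower and 4 higher. The mean over the members was 0.04 and so of the other sign, with Tlr4 at 0.87 as the farthest value.

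**Figure D3:**
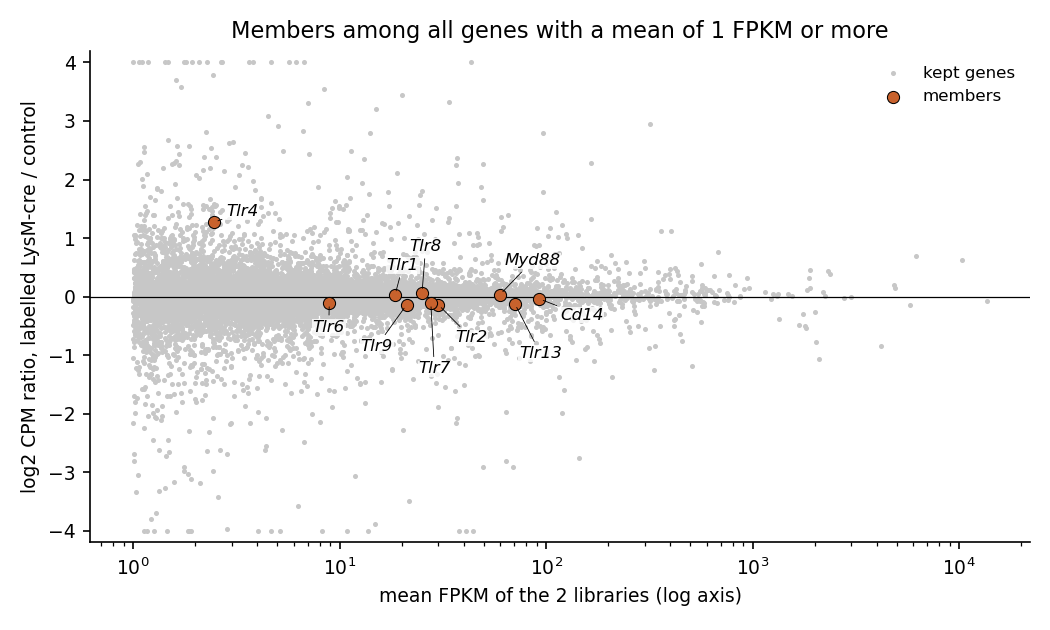
Mean FPKM of the libraries (log axis) against the log2 CPM ratio for all kept genes (grey, values beyond 4 drawn at 4) and the 10 members (orange). Tlr4 sits at 1.27 in the low-level range, where grey points spread widely, and the other members lie close to 0 along the horizontal line.

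The rest of the pathway was followed through 7 lists of 73 genes, of which 72 were matched and 66 kept. In the library labelled LysM-cre 40 of them were higher, and 26 lower, while 50.3% of all kept genes were higher. The counting interval lay above 1 for 31 (30.1% of kept genes) and below 1 for 17 (29.7%). Only Il1rl1 and Ier3 were higher by 1.5-fold or more, and only Ccl3 was lower by as much, against the shares of 3.19% and 3.28% above. Il1rl1, at 0.579 and 1.70 FPKM, passed the minimum mean only through the library in which it was higher, so its place in this count is not independent of that filter. No kept gene of these lists reached 2-fold on the FPKM + 1 scale.

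The 4 other mouse receptor genes were low, and 2 were higher and 2 lower. Tlr3, the receptor for double-stranded RNA that uses the adaptor TRIF, stood at 1.60 and 1.79 FPKM. Tlr5, the flagellin receptor, stood at 1.37 and 1.81 FPKM (CPM ratio 1.32, 1.16 to 1.5). The profilin receptors Tlr11 (3.06 and 2.29 FPKM, CPM ratio 0.749, 0.666 to 0.842) and Tlr12 (3.96 and 3.11 FPKM, 0.787, 0.710 to 0.873) were both on the lower side. The Tlr4 level lay between those of Tlr5 and Tlr3 in the control and above all 4 of these in the library labelled LysM-cre.

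Genes of the accessory and co-receptor list did not share the difference of Tlr4 in size. Ly96, which encodes the MD-2 subunit that binds lipopolysaccharide, stood at 10.2 and 11.7 FPKM (CPM ratio 1.15, 1.03 to 1.27). Lbp, the lipopolysaccharide-binding protein, stood at 3.03 and 2.69 FPKM. Cd36, a scavenger receptor that helps TLR2, stood at 23.1 and 24.4 FPKM. Cd180, a TLR4-like receptor of B cells and myeloid cells, and its partner Ly86 were nearly level at 27.8 and 27.2 FPKM and at 37.0 and 36.0 FPKM.

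Adaptors beside Myd88 differed modestly. Ticam1, which encodes TRIF, the adaptor of TLR3 and of internalised TLR4, stood at 8.43 and 10.6 FPKM (CPM ratio 1.25, 1.18 to 1.34). Ticam2, the bridging adaptor between TLR4 and TRIF, stood at 7.95 and 8.83 FPKM, but an overlapping row on the same strand held 7786 and 7264 counts against its own 3078 and 3410, so its value is uncertain. Tirap, which bridges TLR2 and TLR4 to MyD88, stood at 6.38 and 6.02 FPKM, and Pik3ap1, an adaptor to PI3 kinase, at 72.8 and 68.6. Sarm1 was below the minimum, with 70 and 48 counts.

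Genes for folding, trafficking and proteolytic activation of the receptors, listed with the nuclease genes Dnase2a and Rnaset2b, were mostly on the higher side. Of 11 kept genes, 9 were higher, each with a counting interval above 1 (30.1% of kept genes), and 2 were lower. The interval narrows with depth, so this share depends on counts as well as on size of difference. Ctss, on 78406 and 79129 counts, was among the 9 at a CPM ratio of only 1.01 (1.001 to 1.021). The median log2 ratio of the 11 genes was 0.19, the value of Rnaset2b, beside 0.00 over all kept genes. None reached 1.5-fold. Hsp90b1, the endoplasmic reticulum chaperone of the receptors, stood at 103 and 124 FPKM (CPM ratio 1.21, 1.19 to 1.23), beside overlapping rows of 929 and 1117 counts on its strand. Cnpy4, a co-chaperone family member, stood at 5.34 and 6.6 FPKM. Among endolysosomal enzymes, the protease gene Lgmn stood at 160 and 194 FPKM and Dnase2a, which digests DNA in lysosomes, at 13.6 and 16.3. The exceptions were Ctsl and Unc93b1. Unc93b1 encodes the carrier that takes nucleic acid receptors to endosomes, and was lower, at 190 and 175 FPKM (CPM ratio 0.924, 0.910 to 0.937). Of these receptors, Tlr7, Tlr9 and Tlr13 were on the same side. Tlr8 (1.05, 1.01 to 1.09) and Tlr3 (1.12, 0.998 to 1.26) were on the other.

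Most macrophage markers lay on the same side as these enzymes and Tlr4. Of 10 markers, 9 had a counting interval above 1 (30.1% of kept genes), and Vcam1 was nearly level at 197.8 and 199.5 FPKM. Their summed level was 2449 and 2733 FPKM (ratio 1.12). Within them Marco, a scavenger receptor, was the 1 gene past 2-fold (8.83 and 25.9 FPKM). Of 8 eosinophil markers, 7 had a counting interval above 1, and Ear1 was level at 80 and 80 counts. Their sum of 672 and 895 FPKM (ratio 1.33) was mostly Ear2 (572 and 728 FPKM). Past 2-fold were Epx (CPM ratio 5.55, 4.23 to 7.38), Prg2 (2.53, 2.36 to 2.72) and Ear6 (2.85, 2.5 to 3.26), granule protein genes whose ratios were as large as that of Tlr4 or larger. Epx stood at 0.343 and 1.91 FPKM, on 63 and 349 counts. It passed the minimum mean only through the library labelled LysM-cre, so its place in these counts is not independent of that filter. Neutrophil markers were lower in 10 of 12 genes, against 49.7% of all kept genes (12948 and 11362 FPKM in sum, ratio 0.878). Of this list, Retnlg was higher (CPM ratio 1.14, 1.12 to 1.16) and Mmp9 nearly level (1.01, 0.991 to 1.025). B cell markers, of a cell type that also expresses Tlr7 and Tlr9, were lower in 9 of 10 (223 and 203 FPKM in sum, ratio 0.910). The exception was Cr2 (CPM ratio 1.09, 1.02 to 1.16). Monocyte markers were mixed, with 6 higher and 4 lower (1257 and 1431 FPKM), and the 2 past 2-fold went opposite ways: Cx3cr1 stood at 6.16 and 61.6 FPKM, with overlapping rows on its strand, and Irf8 at 45.7 and 21.5. The summed dendritic cell (159 and 164 FPKM) and T and NK cell markers (259 and 266 FPKM) were close. Summed epithelial markers were low (4.02 and 4.19 FPKM), with Krt19 and Cldn3 at 0 in both libraries. The part of these cell types in the receptor values was not tested.

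Of 17 kept kinases and ubiquitin ligases near the receptors, 10 were higher and 7 lower, and the median log2 ratio was 0.03. The 4 with the largest differences were Irak2, a kinase of the MyD88 assembly (9.11 and 12.5 FPKM, CPM ratio 1.37, 1.3 to 1.44), the ligase Traf3 (3.49 and 4.70 FPKM), Irak1 (18.8 and 22 FPKM) and Tbk1, a kinase towards interferon genes (21.3 and 18.6 FPKM). Of 11 kept inhibitors, 7 were higher and 4 lower. Irak3, which encodes the inhibitory IRAK-M and dampens MyD88 signalling, stood at 13.4 and 10.2 FPKM (0.759, 0.72 to 0.8). Il1rl1, which encodes the interleukin-33 receptor ST2, stood at 0.579 and 1.70 FPKM on 268 and 783 counts (2.93, 2.54 to 3.38). ST2 is also known from eosinophils, most of whose markers were higher in the same library as given above, and their part in this value was not tested. The deubiquitinase gene Cyld stood at 5.05 and 6.26 FPKM, and Sigirr, a decoy-like receptor, at 5.34 and 4.67.

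Transcripts that TLR signals are known to induce had no common direction. Of 14 kept genes, 8 were higher and 6 lower, and the median log2 ratio was 0.02. Ier3, an immediate early gene, stood at 11.1 and 17.9 FPKM (CPM ratio 1.60, 1.47 to 1.75), and the chemokine gene Cxcl2 at 76.1 and 101 FPKM. The chemokine genes Ccl3 (73.2 and 48.0 FPKM, 0.656, 0.624 to 0.691) and Ccl4 (18.7 and 12.9 FPKM) were on the lower side.

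**Figure D4:**
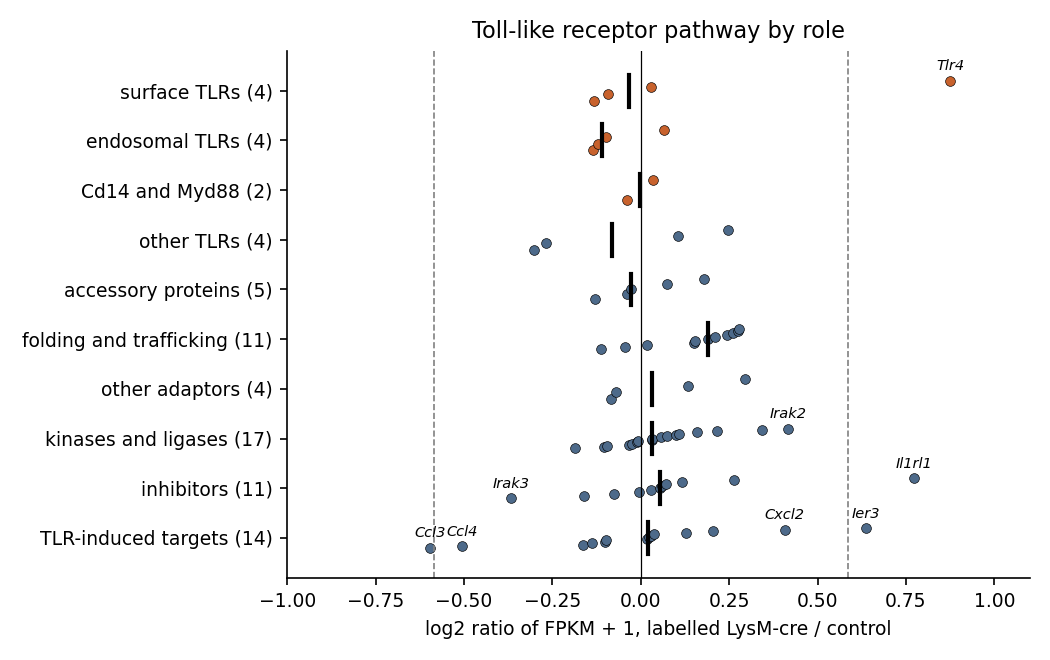
Log2 ratio of FPKM + 1 (library labelled LysM-cre over control) of each kept gene, by role in the pathway, with the number of genes in brackets, members in orange, other genes in blue, black bars at medians and dashed lines at 1.5-fold. Tlr4 (0.87) stands alone among the receptors. The folding and trafficking list, which includes the nuclease genes Dnase2a and Rnaset2b, centres on 0.19.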

How the data were processed

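Poly(A) RNA of MDSCs was sequenced as 150-base paired ends, per the labels' protocols. The series' single table gives gene counts and FPKM made by the authors. The deposited counts are whole numbers and not normalized. The deposited FPKM were scaled by the authors for length and depth, with 0.0001 in place of 0, which was read as 0. The submitters' processing notes name mm10 as build and, as tools, HISAT2 2.0.4, StringTie 1.3.4d, cutadapt 1.9, DESeq2 and edgeR. What each did, and how strand and reads with several matches were treated, was not stated. The 8 value columns that match no sample label were left out.

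Groups follow the genotype label, with 1 library each, so no test was made. The series' text speaks of biological replicates, of which none was analysed here beyond these 2 libraries. Members and lists were chosen with earlier results of these data known. Rows were kept from a mean of 1 FPKM upward. Differences are log2 ratios of FPKM + 1, which understates low genes, counted at 1.5-fold and 2-fold over all kept genes. CPM ratios carry exact intervals for counting error, and PCR copies and read mates are not independent molecules. Total counts were 59506878 and 59393864. Named are all members, every gene of the other-receptor, accessory and adaptor lists, up to 4 genes of largest ratio in each other pathway list, Mettl3, the sex-linked genes and defining cell type markers where their list moves with a result. Likeness of pattern was not computed, since 2 libraries give 1 difference a gene. Unc93b1, Ctsl and genes under the FPKM minimum in the closing section were picked with their values in view. The interval and the fold were also run on simulated counts with Poisson counting error only. Such counts share the interval's own assumption and cannot show how replicates vary. Word sharing used GENCODE M21 transcripts, and the row ends of 7 of 10 members equalled that annotation. Alternatives were other pseudocounts, CPM, TPM, median-ratio and TMM scaling (edgeR 4.0.16, R 4.3.3), other minimums and summed overlapping rows. Python 3.11.15, numpy 2.4.6, pandas 2.3.3 and scipy 1.17.1 were used.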

Additional observations from a re-analysis of the deposited data

How the results depend on the processing

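The count of members at or past 2-fold was 0 on the FPKM + 1 scale and 1, Tlr4, with a pseudocount of 0.1 FPKM, from CPM, from TPM, with median-ratio size factors and with TMM. The count at or past 1.5-fold was 1 as reported and 0 with a pseudocount of 5 FPKM or a minimum of 5 FPKM, which leaves Tlr4 out. The log2 ratio of Tlr4 ranged from 0.40 to 1.21 over 7 alternatives and was positive in each. The median log2 ratio of the members was −0.07, while with the mean in place of the median it was 0.0384. Summing Tlr1 and Tlr6, an alternative chosen after seeing the data, gave −0.01 in place of 0.03 for Tlr1 and −0.09 for Tlr6. The other members kept their sign under every alternative run. Over all kept genes, 6.47% were past 1.5-fold and 2.49% past 2-fold as reported, against 9.59% and 4.02% with a pseudocount of 0.1 FPKM, 2.71% and 0.926% with 5 FPKM, and 2.3% and 0.686% of all rows with no minimum. No scaling moved the median of all kept genes by more than 0.02 on the log2 scale. No paired analysis was possible because each group had 1 library and the labels give no replicate numbers. Depth limits the low genes most: the interval of Tlr4 on 538 and 1294 counts spans 2.18 to 2.67. What replicates would vary by is not known.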

Other observations

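Among the listed TLR-induced genes below the minimum of 1 FPKM, chosen here after their values were seen, the cytokine gene Il6 had 22 counts in the control library, against 48 under the LysM-cre label (CPM ratio 2.19, 1.29 to 3.80). The neutrophil chemokine gene Cxcl1 had 29 and 72 counts (2.49, 1.60 to 3.97). The anti-inflammatory cytokine gene Il10 had 56 and 32 counts (0.573, 0.359 to 0.899), and the interleukin-12 subunit gene Il12b, at 97 and 87 counts, had an interval that covered 1 (0.899, 0.665 to 1.21). These genes are also made by cells other than MDSCs, and the part of such cells was not tested.

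Among promoter windows of members not printed above, the letters GAGGAA, a core recognised by the myeloid factor PU.1 and present in 28.3% of all windows, occurred in windows of Tlr1, Tlr8, Tlr9 and Tlr13. In Tlr6, 1 of 2 annotated windows held 2 overlapping matches to the interferon response motif and the other held 3 TATAAA matches. In Tlr9 there was 1 match to the AP-1 motif TGANTCA, present in 7.81% of windows.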
